A study of Mus musculus with 4 samples.

Results

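The smooth muscle contractile genes were described across the cell classes of orthotopic pancreatic tumors and across 4 conditions, stroma depletions and their PBS controls. The 10 members were Acta2, Actg2, Tagln, Cnn1, Cnn3, Myl9, Myh11, Tpm1, Tpm2 and Des, chosen by symbol out of 32285 mouse genes in the counts, and all 10 were found once in every library. A library here is a single-cell RNA-seq library of KPC tumors, grown from a cell line of mouse pancreatic tumors and implanted in the pancreas of male mice made obese by a high-fat diet. Pdgfrb-TK mice carry a viral thymidine kinase under the Pdgfrb promoter, which makes dividing Pdgfrb-expressing cells, pericytes included, sensitive to ganciclovir (GCV). The group Pdgfrb-TK/GCV received GCV, and its control Pdgfrb-TK/PBS carried the same transgene and received PBS. Wild-type C57BL/6 mice received D-CAN, a peptide that homes to adipose stroma-like cells and kills them (D-CAN), or PBS (WT/PBS). By the study's account the peptide targets pericytes too, along with other stromal cells carrying PDGFRβ and nonglycanated decorin. The labels give an age of 7 months for all 4 samples, the methods of the study an older age at implantation. Cell suspensions of several tumors were pooled by treatment, so that each condition is 1 library and no comparison between conditions can be tested. Where 4 values stand in a row without names, they follow this order of libraries: GCV-treated Pdgfrb-TK mice, their PBS control, D-CAN, wild-type PBS control.

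Contraction in smooth muscle runs on actin filaments and a muscle type of myosin. Acta2 and Actg2 encode the vascular and the enteric smooth muscle actin, Myh11 the myosin heavy chain and Myl9 the regulatory light chain whose phosphorylation starts the stroke. Tpm1 and Tpm2 encode tropomyosins that lie along actin, Cnn1 and Cnn3 encode calponins and Tagln encodes transgelin, which bind the filaments, and Des encodes the intermediate filament desmin. In tumors Acta2 is the usual marker of myofibroblastic cancer-associated fibroblasts. Vascular smooth muscle carries Acta2 with Myh11 and Des, and pericytes carry these genes to varying degrees.

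The members lie on 8 chromosomes of GRCm38 (mm10), and the 3' counts do not tell the exon or isoform a molecule came from. In GENCODE M21, Acta2 spans chr19:34241090-34255590, Actg2 chr6:83512905-83536265 and Tagln chr9:45929619-45936058, all on the minus strand. Cnn1 spans chr9:22099216-22109630 and Cnn3 chr3:121426497-121458207 on the plus strand. Myl9 spans chr2:156775420-156781658 on the plus strand and Myh11 chr16:14194535-14291372 on the minus strand. Tpm1 spans chr9:67022590-67049406 and Tpm2 chr4:43514711-43523765 on the minus strand, and Des spans chr1:75360329-75368579 on the plus strand.

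RefSeq promoter windows were held for 7 members, without Tagln, Myh11 and Actg2. The CArG box, the element that serum response factor binds in many muscle genes, was searched in the 250 bases before the start. Only the strict form CCWWWWWWGG, with W for A or T, was matched, which reads alike on both strands. Boxes with a G or C among the W bases were not searched, and a window without a match may hold one. The strict form stood in 482 of 32851 windows (1.47%) and in 1 of the 7 members, Myl9. Among the other lists it stood in the windows of Myl6, Vcl, Srf, Actg1 and Cnn2. Myl9 and Des are shown because they are the called members of the comparison with pericytes for which a window was held. The bases before both annotated starts are given in GRCm38.p6 on the plus strand, for Myl9 chr2:156775214-156775419 with the CArG box in capitals, ending 108 bases before the gene start, and for Des chr1:75360042-75360291, where no match to these letters lies.
Myl9: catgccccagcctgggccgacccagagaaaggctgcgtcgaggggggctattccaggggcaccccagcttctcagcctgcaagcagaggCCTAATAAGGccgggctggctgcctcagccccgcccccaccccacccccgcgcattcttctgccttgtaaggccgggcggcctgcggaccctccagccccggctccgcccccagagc
Des: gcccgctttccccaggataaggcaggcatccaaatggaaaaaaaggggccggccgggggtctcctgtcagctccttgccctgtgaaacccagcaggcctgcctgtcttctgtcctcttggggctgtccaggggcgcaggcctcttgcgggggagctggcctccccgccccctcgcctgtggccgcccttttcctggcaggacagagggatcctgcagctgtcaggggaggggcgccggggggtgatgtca

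The deposited tables held 10495 to 12280 cells and 84020317 to 155408336 UMIs (unique molecular identifiers, counted molecules) per library, and 26 to 42 barcodes were shared by a pair of libraries. Cells with at least 200 genes were put into 8 classes by markers that include no member. Fibroblasts, gated on collagens, Pdgfra, Lum and 3 further markers, numbered 204, 367, 950 and 1394 in library order. Pericytes, all with an Rgs5 UMI, numbered 3, 30, 41 and 116, and tumor cells 5570, 6562, 2937 and 5189. Krt8 was detected in 98.7% to 99.2% of the tumor cells and Cdh1 in 77.0% to 88.0%, but Epcam in 7.1% to 13.1%. The gated fibroblasts also had a Krt8 UMI in 82.8%, 64.9%, 36.2% and 63.6% of cells in library order, and a Krt18 UMI in 32.6% to 73.5%. With 3 cells and 42142 UMIs, the pericytes of Pdgfrb-TK/GCV give values of low precision, and T-cell markers reached 285 CPM in them (the count scaled to a fixed total of UMIs of the class). Markers of striated muscle, which also holds Des, summed to 0.475 to 3.21 CPM in fibroblasts. The gate does not separate pericytes from vascular smooth muscle, which carries Rgs5 as well.

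Fibroblasts were first compared with pericytes within the same libraries (edgeR on UMIs summed by library and class, with library as a term; a gene was called at a Benjamini-Hochberg adjusted p under 0.05 over 13559 genes). The 4 libraries are different conditions and serve as the replicates. The fit also held the sums of tumor cells, and the classes shared an estimate of spread. The p-values therefore weigh a class difference against the spread across libraries in all of these classes, not in fibroblasts and pericytes alone. Of the 10 members, 3 were lower in fibroblasts (Myh11, Des and Myl9), against 3.78% of all genes. No member was higher, against 6.16% of all genes. The median log2 fold change of the members was -0.94, beside 0.14 over all genes tested.

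Among the myosin subunits, Myh11 differed most between the 2 stromal classes. In pericytes Myh11 reached 23.7 (1 UMI), 199.9, 497 and 203 CPM in library order. In fibroblasts it reached 3.19, 4.75, 14.6 and 1.43 CPM. The classes did not overlap, and the difference was 40.6-fold (log2 fold change -5.34 ± 0.48 (SE), n = 4 libraries, adjusted p = 9.3e-06 by edgeR). Not every gated pericyte carried Myh11. Pericytes with a UMI of it numbered 12 of 30 in Pdgfrb-TK/PBS, 23 of 41 in D-CAN and 44 of 116 in WT/PBS. In D-CAN 5 of the 41 held 62.4% of its UMIs, and in WT/PBS 5 of the 116 held 42.7%. Myl9 stood at 166, 263, 693 and 265 CPM in pericytes and at 39.8, 51.3, 79.7 and 79.5 CPM in fibroblasts. It was lower in fibroblasts in all 4 libraries, 4.77-fold in the fit (log2 fold change -2.25 ± 0.51, adjusted p = 0.010 by edgeR). Of the Myl9 UMIs of pericytes, 5 of 41 cells held 67.8% in D-CAN and 5 of 116 held 42.3% in WT/PBS.

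Des, the desmin gene, stood at 854, 210, 559 and 173 CPM in pericytes. In fibroblasts it stood at 89.6, 52.2, 86.6 and 36.4 CPM. Again the classes did not overlap, and the level in fibroblasts was 4.91-fold lower (log2 fold change -2.29 ± 0.33, adjusted p = 4.1e-04 by edgeR). Of the Des UMIs of pericytes, 5 of 41 cells held 56.7% in D-CAN and 5 of 116 held 28.9% in WT/PBS.

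The actins were less steady. Acta2 reached 1424, 1031, 3163 and 1015 CPM in pericytes, and 433, 452, 626 and 841 CPM in fibroblasts. Fibroblasts were lower in each library, but the gap was wide in D-CAN and narrow in WT/PBS, and the difference missed the threshold (log2 fold change -1.18 ± 0.37, adjusted p = 0.055 by edgeR). The adjusted p ran from 0.0028 to 0.25 over the 13 alternative settings and passed 0.05 in 7 of them, so Acta2 is not counted as different here. Actg2 stood at 47.5, 52.6, 315 and 43.2 CPM in pericytes and at 6.77, 46.5, 43.3 and 42.3 CPM in fibroblasts. The libraries of both PBS controls gave near equal levels in both classes, and the log2 fold change was -1.34 ± 0.56 (adjusted p = 0.16 by edgeR). Without the D-CAN library it was -0.11, and without WT/PBS -2.02 (adjusted p = 0.034 by edgeR).

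The filament-binding members did not separate the stromal classes in the test. Tagln ranged from 435 to 978 CPM in fibroblasts and from 410 to 3035 in pericytes (log2 fold change -0.49 ± 0.53, adjusted p = 0.66 by edgeR). Only the D-CAN and Pdgfrb-TK/GCV pericytes lay above all fibroblast values. Tpm1 had a log2 fold change of -0.61 ± 0.28 (adjusted p = 0.20 by edgeR) and Tpm2 of -0.36 ± 0.32 (adjusted p = 0.57 by edgeR). Cnn3, the calponin found outside muscle, had the only positive value, 0.65 ± 0.31 (adjusted p = 0.23 by edgeR), with 203 to 299 CPM in fibroblasts and 116 to 242 CPM in pericytes. Cnn1, the calponin of differentiated smooth muscle, was sparse, with 0 UMIs in the pericytes of both Pdgfrb-TK libraries (each allows up to 71.2 and 31.6 CPM), and had a log2 fold change of -0.71 ± 0.92 (adjusted p = 0.73 by edgeR).

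**Figure D1:**
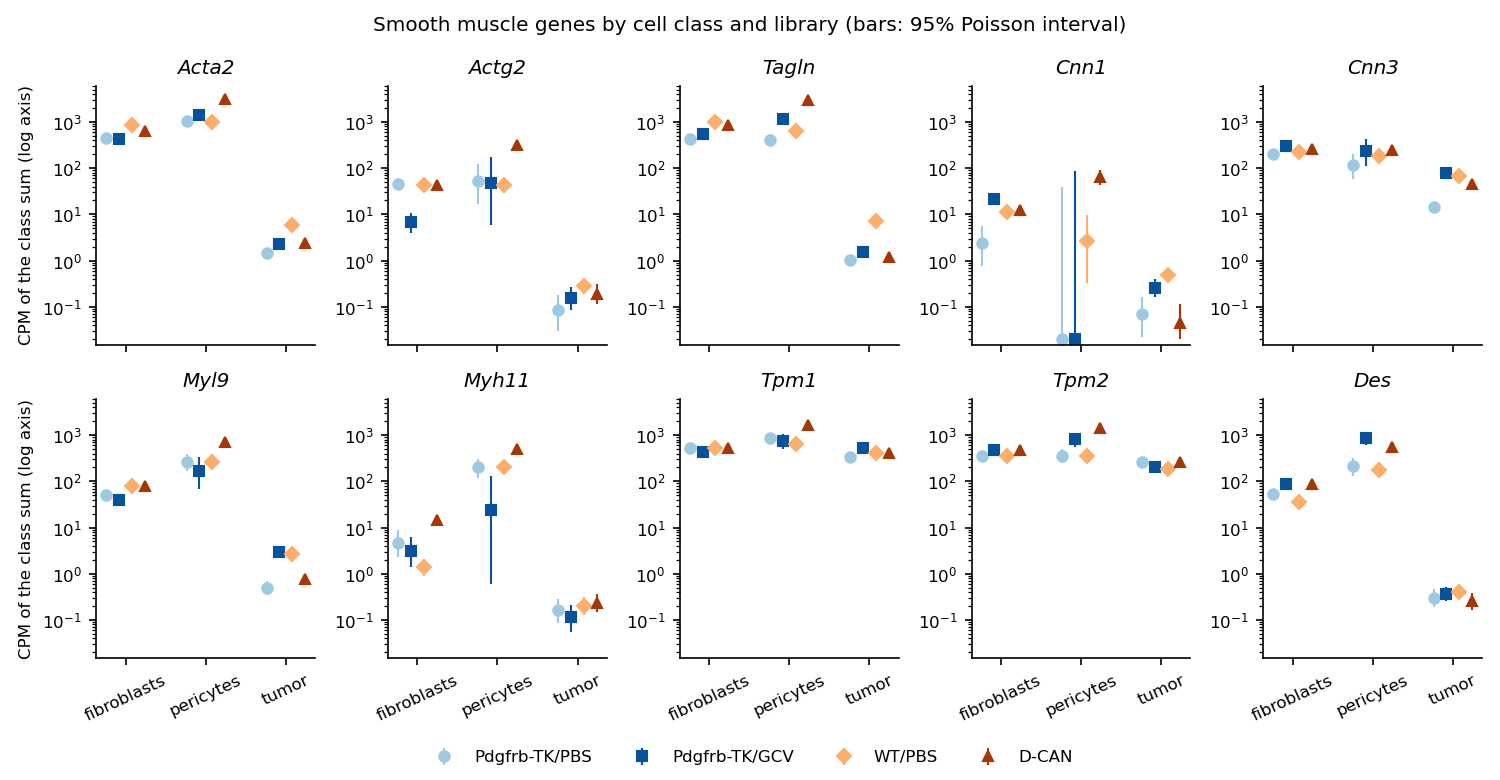
Level of each smooth muscle gene in CPM of the UMIs of a class (log axis) in fibroblasts, pericytes and tumor cells, with 1 point per library (blue: Pdgfrb-TK, orange: wild type; dark: depleted) and exact 95% Poisson intervals; a level of 0 is drawn at 0.02 CPM. Myh11, Des and Myl9 are lower in fibroblasts than in pericytes in each library, whereas Tpm1 lies between 334 and 1635 CPM in all 3 classes.

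Other genes of the contractile apparatus gave a like picture. Over all genes tested, 3.78% were lower in fibroblasts and 6.16% higher, with a median log2 fold change of 0.14. Of 19 partners (kinases, phosphatase subunits, adhesion and cytoskeletal proteins that work with the members), 9 were lower in fibroblasts than in pericytes, none was higher, and the median log2 fold change was -1.01. The largest differences were those of Ppp1r14a, an inhibitor of myosin phosphatase (-5.30 ± 0.36, adjusted p = 1.1e-06 by edgeR), Kcnmb1, a subunit of the large-conductance potassium channel (-4.88 ± 0.81, adjusted p = 0.0012), and Lmod1, an actin nucleator of smooth muscle (-4.63 ± 0.53, adjusted p = 6.4e-05). Of 4 regulators, 2 were lower in fibroblasts. Myocd, the coactivator of serum response factor in smooth muscle, stood at 20.5 to 23.7 CPM in pericytes and 0 to 4.40 CPM in fibroblasts (-2.80 ± 0.72, adjusted p = 0.022 by edgeR), and the related Mrtfb differed by -0.94 ± 0.23 (adjusted p = 0.019 by edgeR). The Myocd value of 23.7 CPM was 1 UMI in the 3 pericytes of Pdgfrb-TK/GCV. Srf and Mrtfa were not called (-0.19 and -0.44). Among 10 non-muscle counterparts of the members, Myh10 was higher in fibroblasts (2.19 ± 0.53, adjusted p = 0.016 by edgeR) and the other 9 were not called.

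Against tumor cells, 9 of 10 members were higher in fibroblasts and none was lower, where 27.3% of all genes were higher and 25.1% lower. Tagln differed most, with 435 to 978 CPM in fibroblasts and 1.04 to 7.04 CPM in tumor cells (log2 fold change 8.27 ± 0.68, adjusted p = 9.8e-08 by edgeR). Acta2 reached 2.30, 1.46, 2.37 and 5.99 CPM in the tumor cells (log2 fold change 7.73 ± 0.46, adjusted p = 4.1e-09 by edgeR). Des, Actg2, Cnn1, Myl9 and Myh11 had log2 fold changes of 7.51, 7.46, 5.67, 5.31 and 4.67, each with an adjusted p under 0.05 by edgeR. None of these 7 genes exceeded 7.04 CPM in the tumor cells of any library.

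Free RNA can give tumor cells a few UMIs of stromal genes, and its share was not tested. Acta2 in tumor cells amounted to 0.53%, 0.32%, 0.38% and 0.71% of the level in fibroblasts of the same library, and Tagln to 0.28%, 0.24%, 0.14% and 0.72%. Col1a1, a collagen of fibroblasts, amounted to 0.22%, 0.24%, 0.24% and 0.59%. It is a marker of the gate, which takes fibroblasts for high and tumor cells for low fibroblast markers. No member is a marker, so the shares of the members and of Col1a1 are not alike in kind. All 3 shares were highest in WT/PBS. Acta2 lay above Col1a1 in each library, and Tagln only in Pdgfrb-TK/GCV and WT/PBS. Myl9 amounted to 7.42%, 0.98%, 0.96% and 3.35% and also lay above Col1a1 in each library. In CPM of the class sums, Acta2 in tumor cells was lower than in macrophages and neutrophils of the same library. With every cell counting alike, the order against macrophages turned in WT/PBS, with 15.2 CPM in tumor cells and 9.72 CPM in macrophages. It held in the remaining libraries. In WT/PBS, 5 of 286 neutrophils held 68.4% of their Acta2 UMIs. The median Acta2 level of the class sums over libraries was 2.33 CPM in tumor cells, 4.35 CPM in macrophages and 17.9 CPM in neutrophils. The median was 13.8 CPM in T cells and 0 CPM in B cells. Whether tumor cells themselves express Acta2 was not tested.

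Cnn3 and the tropomyosins had UMIs in both tumor cells and stroma. Any part of free RNA from tumor cells in their fibroblast values was not tested. Cnn3 stood at 78.4, 14.7, 44.5 and 67.7 CPM in tumor cells, and fibroblasts were 5.68-fold higher (log2 fold change 2.51 ± 0.29, adjusted p = 3.7e-06 by edgeR). Tpm2 stood at 204, 259, 257 and 185 CPM in tumor cells, and fibroblasts were 1.87-fold higher (log2 fold change 0.91 ± 0.31, adjusted p = 0.022 by edgeR), a call that was lost without Pdgfrb-TK/GCV (adjusted p = 0.12), without WT/PBS (adjusted p = 0.053) and without the library term (adjusted p = 0.055). Tpm1 stood at 538, 334, 405 and 416 CPM in tumor cells and at 424, 540, 525 and 515 CPM in fibroblasts. The direction differed between libraries, and Tpm1 was not called (0.29 ± 0.27, adjusted p = 0.39 by edgeR).

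Over all genes, 27.3% were higher in fibroblasts than in tumor cells and 25.1% lower. Of the 19 partners, 13 were higher in fibroblasts than in tumor cells and none was lower. The largest values were those of Kcnmb1 (6.45 ± 0.99, at only 0 to 1.42 CPM in fibroblasts), Itga8, an integrin chain (5.99 ± 0.59), and Synpo2, an actin-bundling protein (5.75 ± 0.40), each with an adjusted p under 0.05 by edgeR. Myocd was the only one of 4 regulators called (5.00 ± 0.70, adjusted p = 2.7e-05 by edgeR), at 0 to 4.40 CPM in fibroblasts. The non-muscle counterparts moved both ways. Myh10 (6.79 ± 0.42) and Cnn2 were higher in fibroblasts, whereas Myl12b (-1.49 ± 0.21) and Tpm3 (-1.09 ± 0.20) were lower.

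The source of the molecules differed by gene. Fibroblasts held 67.7% to 78.2% of all Acta2 UMIs of a library and 72.6% to 78.9% of the Tagln UMIs, while tumor cells held 2.19% to 12.6% and 0.852% to 7.71%. Tumor cells held 71.9% to 86.0% of the Tpm1 UMIs, 68.5% to 90.7% of the Tpm2 UMIs and 45.7% to 64.4% of the Cnn3 UMIs. Pericytes held 3.33% (1 of 30), 34.5%, 42.6% and 63.0% of the Myh11 UMIs in library order, and were 0.403% of the cells in D-CAN and 0.998% in WT/PBS. Of the Des UMIs, fibroblasts held 58.2% to 69.0% and pericytes 9.47% to 18.7%.

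Among the other classes, endothelial cells had Cnn3 at 166 to 233 CPM, close to the range in fibroblasts, and Tpm1 at 146 to 410 CPM. Macrophages had Acta2 at 3.6 to 9.9 CPM and Tagln at 0.9 to 10.9 CPM. In the D-CAN library, endothelial cells reached 399 CPM for Acta2 and 512 for Tagln, but 5 cells of 92 held 99.4% and 96.8% of these UMIs. In the 654 T cells and B cells of D-CAN, 5 cells held 95.2% of the Acta2 UMIs and 97.6% of the Tagln UMIs. No caller of doublets, droplets that hold 2 cells, was run, and their part in these values was not tested.

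The share of cells with a UMI was taken after thinning each cell to 2000 UMIs, since median depth ran from 5024 to 11413.5 UMIs in fibroblasts and from 1588 to 3683.5 in T cells and B cells. In library order Acta2 was detected in 20.7% (41 of 198), 26.8% (91 of 339), 23.5% (195 of 829) and 38.1% (493 of 1293) of fibroblasts. Exact 95% intervals ran from 15.3% to 27.0%, 22.2% to 31.9%, 20.7% to 26.6% and 35.5% to 40.8%, which cover counting error only. WT/PBS lay above the other 3 libraries, whose intervals overlapped. The T cells and B cells of the same libraries gave 0 of 140, 0 of 6, 7 of 585 (1.20%) and 0 of 32 (0 of 140 allows up to 2.14% and 0 of 32 up to 9.38%, while 6 cells tell little).

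Tagln was also detected most often in WT/PBS, with 20.2%, 23.0%, 28.5% and 40.4% of fibroblasts. Tpm1 was detected in 46.9% to 50.3% of fibroblasts and in 43.8% to 56.1% of tumor cells. Des was detected in 11.6%, 7.37%, 12.9% and 5.18% of fibroblasts, with the lowest share in WT/PBS. Actg2, Cnn1 and Myh11 were detected in under 5% of fibroblasts in all 4 libraries. In pericytes, leaving out the library with 3 of them, Myh11 was detected in 26.3%, 41.7% and 22.7% and Des in 26.3%, 52.8% and 23.6%. At least 3 members were detected together in 26.5% to 35.8% of fibroblasts, in 0.63% to 2.29% of tumor cells and in 0% to 0.71% of T cells and B cells. Unthinned, Acta2 was detected in 40.2%, 41.7%, 33.2% and 60.2% of fibroblasts.

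**Figure D2:**
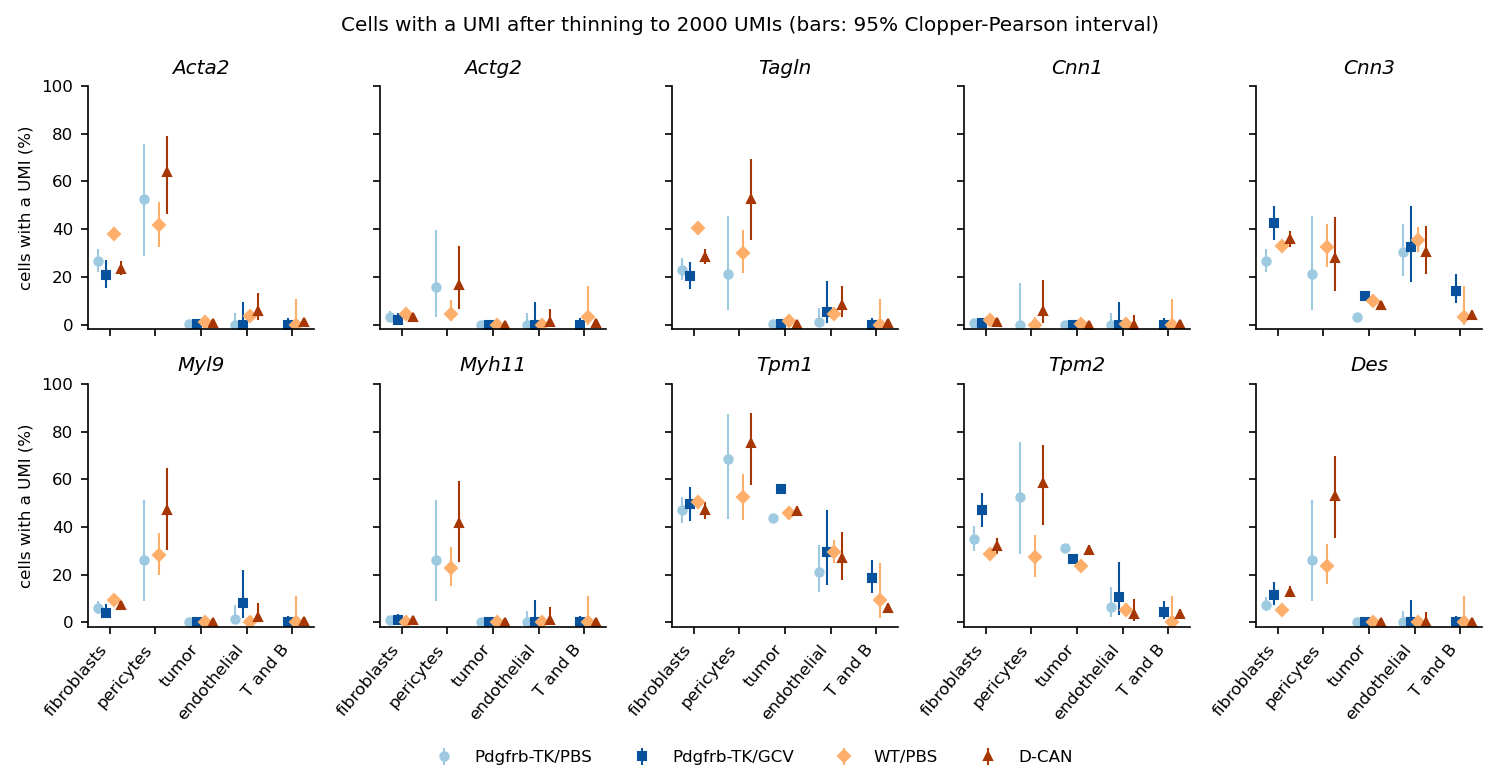
Share of cells with at least 1 UMI of each smooth muscle gene (y axis, percent) after thinning every cell to 2000 UMIs, in 5 cell classes, with 1 point per library and exact 95% intervals; libraries with under 10 cells of a class are left out. Myh11 and Des are detected in a larger share of pericytes than of fibroblasts in D-CAN and WT/PBS, Tpm1 and Tpm2 in fibroblasts, pericytes and tumor cells, and Acta2, Tagln and Myl9 stay near 0 in tumor cells and lymphocytes.

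Within fibroblasts, the members lay in the same cells to unequal degrees. Among thinned fibroblasts with an Acta2 UMI, Tagln was detected in 56.1%, 61.5%, 76.4% and 67.7%, against 10.8%, 8.9%, 13.7% and 23.6% of those without. The 95% intervals of the 2 groups of cells did not overlap in any library. Myl9 was detected in 12.2%, 16.5%, 23.6% and 21.3% of fibroblasts with an Acta2 UMI and in 1.9% to 2.1% of those without, and Tpm2 in 52.1% to 75.6% against 14.1% to 39.5%. Actg2 was detected in 7.3% to 12.1% against 0% to 0.9%. Des and Cnn3 were less tied to Acta2, and in Pdgfrb-TK/GCV Des stood at 12.2% against 11.5%. Cells of 1 library are not replicates, and these shares are a description.

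**Figure D3:**
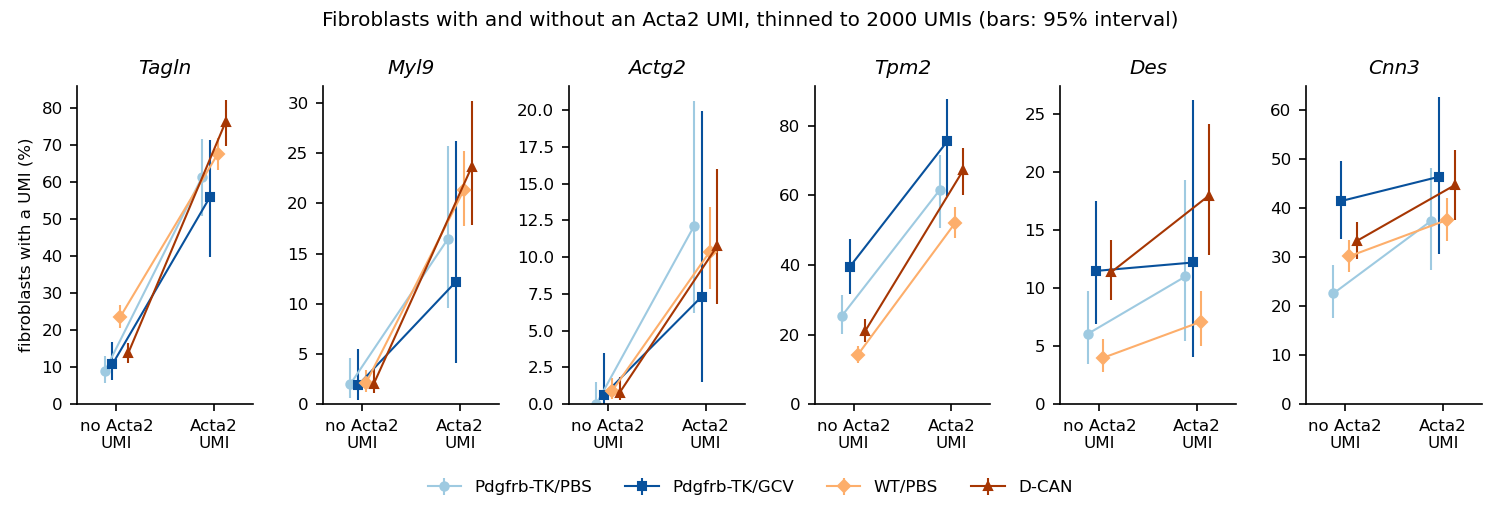
Share of fibroblasts with a UMI of 6 members (y axis, percent, scaled by gene) among fibroblasts without and with an Acta2 UMI, with 1 line per library and exact 95% intervals. Tagln is higher with an Acta2 UMI in all 4 libraries (61.5% against 8.9% in Pdgfrb-TK/PBS), while the lines of Cnn3 and Des are flatter.

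Part of the fibroblasts carried mesothelial genes such as Wt1 and Msln. Fibroblasts with at least 2 of 6 mesothelial markers made up 27.5%, 16.1%, 7.79% and 9.33% of the class. In them Acta2 stood at 551, 396, 478 and 1004 CPM, and in the other fibroblasts at 375, 468, 642 and 815 CPM. The order of the 2 subsets differed between libraries. Cnn1 in Pdgfrb-TK/GCV stood at 47.1 CPM (39 UMIs) in the subset with mesothelial markers and 9.50 CPM (16 UMIs) in the rest. Of these UMIs, 94.5% lay in 5 of 204 fibroblasts. Cnn1 stood at 0 and 3.04 CPM in Pdgfrb-TK/PBS, at 13.1 and 12.1 CPM in D-CAN and at 25.2 and 9.12 CPM in WT/PBS.

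The first depletion model asks what part the Pdgfrb-expressing stromal cells play in the tumor. Fibroblasts of Pdgfrb-TK/GCV and Pdgfrb-TK/PBS had near equal Acta2, 433 (95% Poisson interval 408 to 460) and 452 (424 to 482) CPM, a ratio of 0.96 (0.88 to 1.05). Actg2 was lower, 6.77 CPM (17 UMIs) against 46.5 CPM (98 UMIs), a 6.87-fold difference (4.08 to 12.3). Of 8 members with at least 100 UMIs in the 2 libraries, Actg2 was the only one past a fold of 2, where 3.89% of all such genes were lower and 2.22% higher. Of the Actg2 UMIs of Pdgfrb-TK/PBS, 81.6% lay in 5 of 367 fibroblasts.

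The other members with at least 100 UMIs differed by less. Des was 1.72-fold higher in Pdgfrb-TK/GCV (1.36 to 2.18), Cnn3 1.48-fold, Tpm2 1.30-fold and Tagln 1.29-fold. Tpm1 was 1.27-fold lower (1.17 to 1.39). Cnn1 had too few UMIs for a call, 55 against 5 (9.23-fold higher, 3.72 to 29.5), and 5 of 204 fibroblasts held 94.5% of the 55. The median log2 ratio was 0.15 over the 8 members and -0.11 over all genes. Intervals cover counting error only, not the spread between tumors.

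In the second model, D-CAN against WT/PBS, fibroblasts had 626 and 841 CPM of Acta2 (ratio 0.74, 0.72 to 0.77) and 858 and 978 CPM of Tagln (0.88, 0.85 to 0.90). All 10 members had at least 100 UMIs. Of these, 2 were past a fold of 2, both higher with D-CAN, where 12.5% of all genes were higher and 7.00% lower. Des stood at 86.6 against 36.4 CPM (2.38-fold, 2.14 to 2.64). Myh11 stood at 14.6 against 1.43 CPM (152 and 24 UMIs, 10.2-fold, 6.61 to 16.4), and 5 of 950 fibroblasts held 50.7% of its UMIs in D-CAN. The markers of pericytes, all 9 with UMIs in both libraries, summed to 247 CPM in fibroblasts after D-CAN against 160 CPM, and their part in the Myh11 and Des values was not tested. Without thinning, Kcnj8 (13.4% against 2.22% of fibroblasts), Abcc9 (14.9% against 3.87%), Ndufa4l2, Cox4i2 and Higd1b were detected more often with D-CAN. Notch3 (14.1% against 23.7%), Cspg4 (12.9% against 21.4%), Mcam and Rgs5 (1.26% against 1.43%) were detected less often. Tpm2 was 1.38-fold higher (1.33 to 1.43), Cnn3 1.18-fold higher, and Tpm1, Cnn1 and Actg2 had ratios of 1.02, 1.07 and 1.02. Myl9 stood at 79.7 and 79.5 CPM.

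With every cell counting alike, the mean Acta2 level of D-CAN fibroblasts was 341 CPM against 654 CPM, a ratio of 0.52, and that of Tagln 476 against 768 CPM (0.62). Actg2 then stood at 21.9 against 40.1 CPM (0.55) and Myl9 at 46.6 against 67.7 CPM (0.69). Des was 1.94-fold higher, no longer past a fold of 2, and Myh11 5.16-fold. The share of thinned fibroblasts with an Acta2 UMI was lower too (23.5% against 38.1%).

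In pericytes most members were higher with D-CAN than in its control. In D-CAN, 41 pericytes (438508 UMIs) had 3163 CPM of Acta2 (2999 to 3334), against 1015 CPM (944 to 1090) in 116 pericytes of WT/PBS (739968 UMIs), a 3.12-fold difference (2.85 to 3.41). Tagln stood at 3035 against 639 CPM (4.75-fold, 4.27 to 5.28) and Actg2 at 315 against 43.2 CPM (7.28-fold, 4.92 to 11.1). Des, Myl9, Tpm1, Tpm2 and Myh11 were 3.23-, 2.62-, 2.53-, 3.96- and 2.45-fold higher. Of 9 members with at least 100 UMIs, 8 were past a fold of 2, all higher with D-CAN, where 8.65% of 2207 genes were higher and 10.0% lower. Cnn3 was 1.31-fold higher, 242 against 185 CPM. The median log2 ratio was 1.64 over the members and -0.0025 over all genes.

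Few cells carried these values. In D-CAN, 5 of 41 pericytes held 60.3% of the Acta2 UMIs, 74.2% of the Tagln UMIs and 89.9% of the Actg2 UMIs, and in WT/PBS 5 of 116 held 54.2%, 44.0% and 56.3%. With every cell counting alike, the same 8 members stayed past a fold of 2, with Acta2 at 2177 against 819 CPM. After thinning, Acta2 was detected in 63.9% of 36 pericytes against 41.8% of 110, and Des in 52.8% against 23.6%. The pericyte markers, all 9 with UMIs, summed to 8777 against 5787 CPM, the fibroblast markers to 7934 against 3684 CPM, and their part in the result was not tested. Of the 19 partners, 7 of 13 with at least 100 UMIs were past a fold of 2, all higher with D-CAN, and so were 4 of 9 non-muscle counterparts, Actb, Actg1, Tagln2 and Cnn2. Over all genes with that many UMIs, 8.65% were higher and 10.0% lower.

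The 3 pericytes of Pdgfrb-TK/GCV allowed little. Only Acta2 and Tpm1 had at least 100 UMIs in the Pdgfrb-TK libraries, and neither was past a fold of 2 (ratios 1.38, 0.98 to 1.92, and 0.86, 0.55 to 1.32), where 7.56% of 172 genes were lower and 26.2% higher. Des stood at 854 CPM (36 UMIs) against 210 CPM (20 UMIs) and Myh11 at 23.7 CPM (1 UMI) against 199.9 CPM (19 UMIs).

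**Figure D4:**
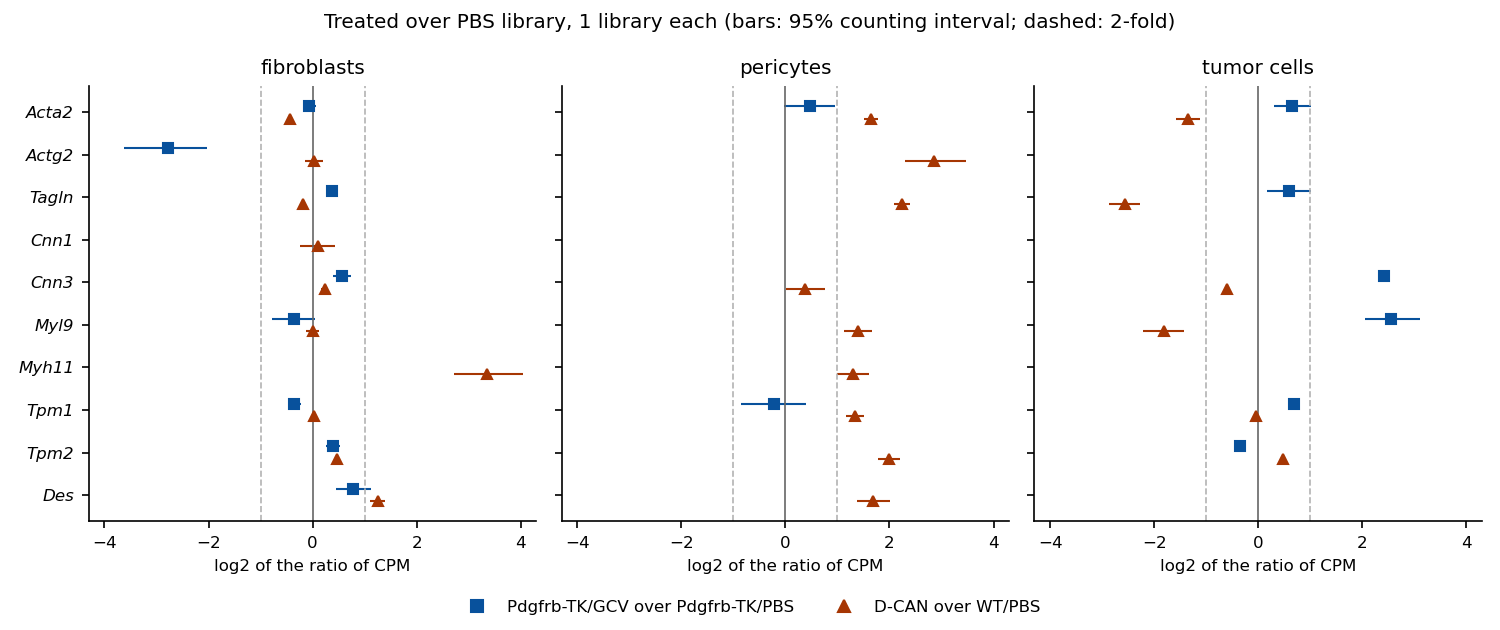
Log2 of the ratio of CPM between the treated and the PBS library of each model (x axis) for members with at least 100 UMIs in the 2 libraries, in fibroblasts, pericytes and tumor cells, with exact 95% counting intervals; dashed lines mark a fold of 2. Actg2 is low in Pdgfrb-TK/GCV fibroblasts, 8 members are past a fold of 2 in D-CAN pericytes, and in tumor cells all 6 members drawn point opposite ways in the 2 models. Of these, Acta2, Tagln and Myl9 did not exceed 7.04 CPM in tumor cells.

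In tumor cells, Cnn3 stood at 78.4 CPM (6924 UMIs) in Pdgfrb-TK/GCV and 14.7 CPM (1058 UMIs) in Pdgfrb-TK/PBS, a 5.32-fold difference (4.99 to 5.68). Myl9 stood at 2.95 against 0.50 CPM (5.90-fold, 4.15 to 8.61). These were the 2 of 6 members with at least 100 UMIs past a fold of 2, where 3.90% of all genes were higher and 1.47% lower. With every cell counting alike, Myl9 stood at 2.46 against 0.89 CPM (2.76-fold) and was no longer past the threshold on the log2(CPM + 1) scale. Against WT/PBS in place of Pdgfrb-TK/PBS, the log2 ratios of Cnn3 and Myl9 were 0.21 and 0.11, and Acta2 and Tagln were past a fold of 2 instead, both lower with GCV (-1.08 and -1.65). Tpm1 was 1.61-fold higher (1.59 to 1.64) and Tpm2 1.27-fold lower (1.24 to 1.30). After thinning, Cnn3 was detected in 11.9%, 3.1%, 8.44% and 10.1% of tumor cells, with Pdgfrb-TK/PBS lowest. Among the partners, Cald1, the actin- and myosin-binding caldesmon, and Smtn, smoothelin, were also past a fold of 2 there (3.21-fold and 2.58-fold higher).

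Between D-CAN and WT/PBS tumor cells, Acta2 (2.37 and 5.99 CPM), Tagln (1.19 and 7.04 CPM) and Myl9 (0.76 and 2.67 CPM) were past a fold of 2, all lower with D-CAN, where 2.69% of all genes were lower and 9.13% higher. The fibroblast markers summed to 66.8 CPM in these tumor cells and to 147.8 CPM in those of the control, and their part in the result was not tested. Cnn3 was 1.52-fold lower with D-CAN (1.46 to 1.58), and Tpm1 had a ratio of 0.97. Against Pdgfrb-TK/PBS in place of WT/PBS, all 4 of Acta2, Tagln, Myl9 and Cnn3 were higher with D-CAN (log2 ratios 0.45, 0.10, 0.23 and 1.53). With every cell counting alike, Myl9 had a ratio of 0.60 and was no longer past a fold of 2. In WT/PBS, 5 of 5189 tumor cells held 29.9% of the Acta2, 46.4% of the Tagln and 18.5% of the Myl9 UMIs of the class. In D-CAN, 5 of 2937 held 12.5%, 25.7% and 28.4%.

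Over the 32 sums of 4 libraries and 8 classes, the 5 genes most like the mean of the members were Pde3a (a phosphodiesterase of cyclic nucleotides; Pearson r = 0.957), Smarca1 (0.954), Foxs1 (0.944), Aoc3 (0.937) and Ddr2 (a collagen receptor; 0.933), among 17215 genes. The sums share libraries and depth, so these values are a description. Pde3a stood at 77.6, 107, 106 and 115 CPM in fibroblasts and at 332, 621, 1072 and 715 CPM in pericytes. Of the members themselves, Myl9 (0.948) and Des (0.943) followed the mean most closely and Cnn3 (0.679) and Tpm1 (0.735) least. Each member is itself part of that mean, so its r is not comparable with those of the other genes.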

How the data were processed

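The 4 deposited libraries are 10x Genomics 3' single-cell counts per gene and cell; per the file headers they were made with Cell Ranger, and the submitters' processing notes name STAR 2.6 and mm10. The deposited counts are whole UMI counts with no normalization, and no cell annotation was used. One protocol field of the labels describes nuclei of another tissue; the study's methods describe digested tumors. Here 5 features that are no mouse gene (GFP and Tdtomato), listed in D-CAN and WT/PBS, were left out, and cells with at least 200 of 32285 genes were kept.

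The share of each marker list in a cell's UMIs was divided by its mean share over the libraries. A host class needed 3 markers with a UMI, a ratio of at least 3, no second host class above 0.5 of it and a tumor ratio under 0.3; pericytes also needed Rgs5. Tumor cells needed 3 markers, a ratio of at least 0.3 and host ratios under 2. Cells between classes were left out as mixed or not gated. The marker lists hold no member. The gate's scoring was set after marker values, but not members' values, were seen. No doublet caller was run.

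UMIs were summed by library and class. Sums of fibroblasts, pericytes and tumor cells were tested with edgeR 4.0.16 (quasi-likelihood, TMM, filterByExpr, library as a term; R 4.3.3), tested on simulated data first. Conditions have 1 library each, so CPM are given with exact Poisson intervals and ratios with exact conditional binomial intervals (95%), and a gene is past a fold of 2 when log2(CPM + 1) differs by 1 or more with at least 100 UMIs in the 2 libraries. A count of 0 allows 3 counts. Shares carry Clopper-Pearson intervals. UMIs count molecules, and intervals cover counting error only. Sums of fibroblasts held 2107021 to 16823959 UMIs and those of pericytes 42142 to 739968.

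The text names all 10 members, for 3 lists of related genes the 3 with the largest absolute log2 fold change among those called, and the 5 genes most like the members. The members and lists were chosen with earlier results of these data known. Genes named beyond this rule were chosen after their values were seen. Alternatives changed normalization, filter, test, library term, libraries, cell filters, markers, pseudocount and control library.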

Additional observations from a re-analysis of the deposited data

Results flagged for a closer look

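In tumor cells, all 6 members with at least 100 UMIs had opposite ratios in the 2 depletion models, each with 1 library per condition, so that the difference was not tested. Of these, Cnn3, Myl9, Tagln and Acta2 were flagged, as each was past a fold of 2 in at least 1 model. Tpm1 (ratios 1.61 with GCV and 0.97 with D-CAN) and Tpm2 (0.79 and 1.39) were past it in neither. The log2 ratio of treated over PBS in the Pdgfrb-TK libraries minus that in the wild-type libraries was 2.93 for Cnn3 (5.32-fold higher with GCV, 1.52-fold lower with D-CAN), 2.45 for Myl9, 2.20 for Tagln and 1.48 for Acta2. The PBS controls of the models also differed from each other, with Cnn3 at 14.7 CPM in Pdgfrb-TK/PBS and 67.7 CPM in WT/PBS, and Tagln at 1.04 and 7.04 CPM. With the PBS library of the opposite genotype as control, the D-CAN ratios of all 4 flagged members changed direction, and those of Acta2 and Tagln with GCV did too. With every cell counting alike, Acta2 with GCV stood at 1.75 against 1.78 CPM and no longer pointed opposite to D-CAN. Tpm1 with D-CAN then stood at 363 against 357 CPM and no longer pointed opposite to GCV. Few tumor cells held much of the Acta2 and Tagln UMIs. In Pdgfrb-TK/GCV, 5 of 5570 held 44.3% and 58.7%, and in Pdgfrb-TK/PBS 5 of 6562 held 27.6% and 44.0%. In D-CAN, 5 of 2937 held 12.5% and 25.7%, and in WT/PBS 5 of 5189 held 29.9% and 46.4%.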

How the results depend on the processing

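The number of members called between fibroblasts and pericytes was 3 and ran from 3 to 5 when each library was left out, 5 without WT/PBS (Acta2 and Actg2 added), and was 5 with no filter on low counts. Leaving out the D-CAN library turned the uncalled values of Tagln, which ran from -0.83 to 0.21 without 1 library, and of Tpm2, which ran from -0.60 to 0.089; Cnn1 gave no value there. Over all genes 1348 were called, 849 without D-CAN and 876 without WT/PBS. Of the 1348, 835 were higher in fibroblasts and 513 lower, while DESeq2 called 793 higher and 809 lower, with a median log2 fold change of -0.23 over all genes in place of 0.14. Myh11, Des and Myl9 kept their call under all 13 alternatives. Against tumor cells 8 or 9 members were called under the 13 alternatives; Tpm2 was lost in 3 of them, and Cnn1 gave no value without D-CAN.

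When the PBS library of the opposite genotype served as control, 2 members were past a fold of 2 for GCV in fibroblasts (Actg2 and Des), 3 in pericytes (Tpm2, Des and Myh11) and 2 in tumor cells, where Acta2 and Tagln took the place of Cnn3 and Myl9. For D-CAN in tumor cells it was 1, Cnn3 (1.53 on the log2 scale), with Acta2, Tagln and Myl9 turned as well (0.45, 0.10 and 0.23). For D-CAN in fibroblasts Cnn1 took the place of Des, and in pericytes Cnn3 that of Tpm1. A pseudocount of 10 CPM left 1 member for GCV and 0 for D-CAN in tumor cells. A mean over cells, an alternative chosen after seeing the data, gave 1 for D-CAN in fibroblasts (Myh11), 1 for GCV in tumor cells (Cnn3), 1 for GCV in pericytes (Acta2) and 2 for D-CAN in tumor cells (Acta2 and Tagln). The number of members past a fold of 2 in D-CAN pericytes was 8 under all 8 alternatives, with the exchange just given. The share of all genes past a fold of 2 was taken in the main setting only. The counts of members past it under the alternatives therefore have no share over all genes to be read against. No paired analysis of conditions was possible because each condition is 1 library and the labels give no replicate numbers. The class tests paired the classes of a library through the library term. The fit without that term called 3 members against pericytes and 8 against tumor cells, where it called 910 and 5619 of all genes. The cause of these changes was not tested. The number of pericytes, 3 to 116, limits all of their values.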

Other observations

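Smooth muscle genes were also found in single cells outside the stromal classes. Of the 92 endothelial cells of D-CAN, 1 held all 19 Myh11 UMIs and all 11 Actg2 UMIs of the class, and 2 held all 58 Myl9 UMIs. Of the 654 T cells and B cells of the same library, 1 held all 24 Cnn1 UMIs. In neutrophils Tagln ranged from 0 to 115 CPM over libraries.

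Mylk, the kinase of the myosin light chain, was 3.35-fold higher in fibroblasts of D-CAN than of WT/PBS (245 against 73.2 CPM, 3.13 to 3.59) and 3.31-fold higher in tumor cells (35.1 against 10.6 CPM, 3.09 to 3.54). In fibroblasts of Pdgfrb-TK/GCV it stood at 51.0 CPM against 115 CPM in Pdgfrb-TK/PBS. Itga1, an integrin chain, stood at 21.5 against 82.6 CPM in the same pair.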
